A study of Homo sapiens with 36 samples.

Results

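CD274 and 8 genes of MHC class I antigen presentation, HLA-B, HLA-C, B2M, TAP1, TAP2, PSMB8, PSMB9 and NLRC5, were followed through the 12 culture conditions of an ovarian cancer cell line. These 9 genes were picked by name out of the 57820 genes in the count table. CD274 was on the list because its counts rose with carboplatin in cis SSP cells. Its values in comparisons that use cis SSP libraries, in either medium, are therefore given below as a description without a test, and so are those of all members in comparisons that use the cis SSP libraries in complete medium. 8 of the 9 genes had counts, and TAP2 was listed at 0 in all 36 libraries.

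A2780 is a human ovarian cancer cell line. The wt cells are the parental line, the cis cells are its isogenic derivative made by long exposure to cisplatin, and the cis SSP cells arose from cis cells kept without serine and glycine until they regained serine synthesis. Each line was cultured in complete medium or in medium lacking serine and glycine (-SG), without drug or with carboplatin (carbo), a platinum compound that crosslinks DNA. The sample labels write the dose as 6 M, and for its metabolite tracing in these cells the study's methods give 6 µM. Each condition had 3 RNA-seq libraries, which the study's legends call technical replicates, so the p-values below measure the spread between libraries of a condition and not between independent derivations of a line. The resistant and the regained lines are each represented by 1 line, and a difference between lines cannot be told apart from other differences acquired in culture.

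MHC class I molecules carry peptides from inside the cell to its surface, where CD8 T cells inspect them. HLA-B and HLA-C encode heavy chains, B2M encodes the light chain they share, and the immunoproteasome subunits encoded by PSMB8 and PSMB9 replace constitutive subunits and change which peptides are cut. TAP1 and TAP2 form the transporter that brings peptides into the endoplasmic reticulum, and NLRC5 is the transactivator of MHC class I genes. CD274 encodes PD-L1, the ligand that restrains T cells through the receptor PD-1. Interferon gamma, acting through JAK kinases and IRF1, is the best known inducer of all of these genes, and NF-kB also acts on several of them.

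Counts on genes ranged from 13074937 to 20441582 per library, and levels are given as CPM, counts scaled to a common library total after adjustment by the trimmed mean of M values (TMM) over the 36 libraries. Library 25 of cis SSP and library 32 of cis SSP -SG stood apart: relative to the other libraries of their condition, their log2 levels fell with exon length by 1.35 and 1.39 per 10-fold of length, whereas the other 34 libraries lay between -0.51 and 0.74. Libraries 23 and 24 of cis -SG carbo had 17.9% and 14.9% of reads in no gene, against at most 9.31% elsewhere. Of 7 ovarian and epithelial markers, MUC16 had at most 3 counts in all 36 libraries, PAX8 in 26 and PAX2 in 23, although PAX2 reached 204 CPM elsewhere and KRT18 reached 44.1 CPM, so the labelled ovarian origin rests on few of these markers. The leukocyte marker PTPRC, the T cell marker CD3E and CD68, also on the leukocyte list, had at most 3 counts in every library. ITGAX, also used as a leukocyte marker, made up most of a summed leukocyte marker level of 30.98 to 32.98 CPM in wt carbo, against 2.27 to 2.82 in wt, and COL1A1 made up most of a fibroblast and endothelial marker level of 852 to 859 CPM in wt carbo, against 162 to 166 in wt and 4.40 to 5.09 in cis; the part of either in the results was not tested.

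Promoter windows of some members are printed first, and they differed in which of the searched letter patterns they held. Only exact letters within a window were counted, so near matches and elements outside the window were not seen. Whether any match acts on its gene was not tested. RefSeq windows of 300 bases, from 250 bases before the start site, were held for 8 of the 9 genes on GRCh38.p14. NLRC5 was not among them. Both strands were searched for the interferon-stimulated response element core (ISRE, GAAANNGAAA), the gamma-activated site (GAS, TTCNNNGAA), the NF-kB consensus, the cAMP response element core (TGACGT) and the CCAAT box. In the lines below, capitals mark ISRE, GAS and NF-kB matches, which run together where matches share bases.
CD274, chr9:5450292-5450591, plus strand: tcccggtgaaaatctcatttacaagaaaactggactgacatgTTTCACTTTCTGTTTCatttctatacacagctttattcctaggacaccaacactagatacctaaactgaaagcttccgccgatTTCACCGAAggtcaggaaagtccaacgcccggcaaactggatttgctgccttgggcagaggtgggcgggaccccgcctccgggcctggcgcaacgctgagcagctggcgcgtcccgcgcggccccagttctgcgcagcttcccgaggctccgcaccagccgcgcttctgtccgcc
B2M, chr15:44711267-44711566, plus strand: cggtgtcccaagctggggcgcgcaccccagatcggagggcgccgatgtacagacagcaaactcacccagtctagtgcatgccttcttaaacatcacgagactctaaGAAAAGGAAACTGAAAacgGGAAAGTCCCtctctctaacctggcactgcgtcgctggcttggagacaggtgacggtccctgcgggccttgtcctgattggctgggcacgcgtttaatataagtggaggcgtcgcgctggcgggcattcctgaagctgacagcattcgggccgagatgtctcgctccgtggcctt
TAP1, chr6:32853655-32853954, minus strand: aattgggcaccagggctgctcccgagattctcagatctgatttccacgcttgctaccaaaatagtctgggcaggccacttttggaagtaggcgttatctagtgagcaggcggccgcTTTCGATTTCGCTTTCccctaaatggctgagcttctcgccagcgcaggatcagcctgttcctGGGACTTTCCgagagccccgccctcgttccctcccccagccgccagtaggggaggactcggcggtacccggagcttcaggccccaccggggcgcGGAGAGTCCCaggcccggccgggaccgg
HLA-B, chr6:31357130-31357429, minus strand: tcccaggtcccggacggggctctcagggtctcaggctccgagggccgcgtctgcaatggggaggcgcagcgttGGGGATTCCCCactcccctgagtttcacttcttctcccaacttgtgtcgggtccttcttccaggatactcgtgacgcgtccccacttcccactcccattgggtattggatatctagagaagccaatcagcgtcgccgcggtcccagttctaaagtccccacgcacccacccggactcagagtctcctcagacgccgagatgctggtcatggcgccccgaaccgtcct
PSMB9, chr6:32853942-32854241, plus strand: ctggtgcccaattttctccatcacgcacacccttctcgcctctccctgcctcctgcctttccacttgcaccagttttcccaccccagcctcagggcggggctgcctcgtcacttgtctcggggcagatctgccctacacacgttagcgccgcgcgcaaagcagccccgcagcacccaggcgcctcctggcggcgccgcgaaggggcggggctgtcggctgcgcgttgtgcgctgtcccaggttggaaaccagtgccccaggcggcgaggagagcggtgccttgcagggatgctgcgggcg

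CD274 held a pair of overlapping ISRE cores at -208 and -202 from the start site, and a GAS at -125. B2M and TAP1 likewise held a pair of overlapping ISRE cores each, at -144 and -138 in B2M and at -134 and -128 in the printed window of TAP1, together with NF-kB matches. TAP1 has a second window, not printed, which held a GAS at -189 from its own start site. HLA-B held overlapping NF-kB matches at -177 and -176 and no ISRE core with these letters, and HLA-C held an NF-kB match at -172. The PSMB9 window held none of the 3 capitalised elements, only a CCAAT box, which 34.6% of all promoter windows hold. It faces TAP1 across a shared stretch of DNA: their start sites lie 488 bases apart on opposite strands and their windows share 13 bases. TAP2 held an ISRE core at -58, and of the windows for PSMB8, which has 2, the first held only a cAMP response element and the other an ISRE core and a GAS. Among 35097 promoter windows, 3.58% held an ISRE core, 7.66% a GAS, 11.3% an NF-kB match and 7.98% a cAMP response element, and a match is a description of letters only.

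In wt cells, CD274 (ENSG00000120217, chromosome 9, 5450503 to 5470566, GRCh37) was read at 1.94, 2.16 and 1.84 CPM without drug and at 12.9, 13.1 and 12.3 CPM with carboplatin. Without serine and glycine the wt libraries lay at 1.72, 1.10 and 0.964 CPM, and at 15.1, 16.6 and 15.9 CPM with carboplatin. Every carboplatin library of wt cells was thus several-fold above every untreated wt library, in both media. The cis cells had the lowest mean, with libraries at 0.924, 0.812 and 1.07 CPM, and 1.72, 2.19 and 2.18 CPM with carboplatin. Under -SG the cis libraries rose to 2.00, 3.12 and 3.05 CPM, and carboplatin added little to that, with 3.39, 2.89 and 2.84 CPM. Here the treated and untreated libraries overlapped. The cis SSP libraries lay at 0.919, 1.32 and 1.09 CPM without drug and at 8.52, 8.60 and 7.55 CPM with carboplatin, and under -SG at 1.07, 1.93 and 1.67 CPM and at 6.54, 8.14 and 7.20 CPM. All carboplatin libraries of cis SSP cells therefore stood above all carboplatin libraries of the cis cells they came from. CD274 was a low-abundance transcript throughout, with 13 to 271 counts per library.

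**Figure D1:**
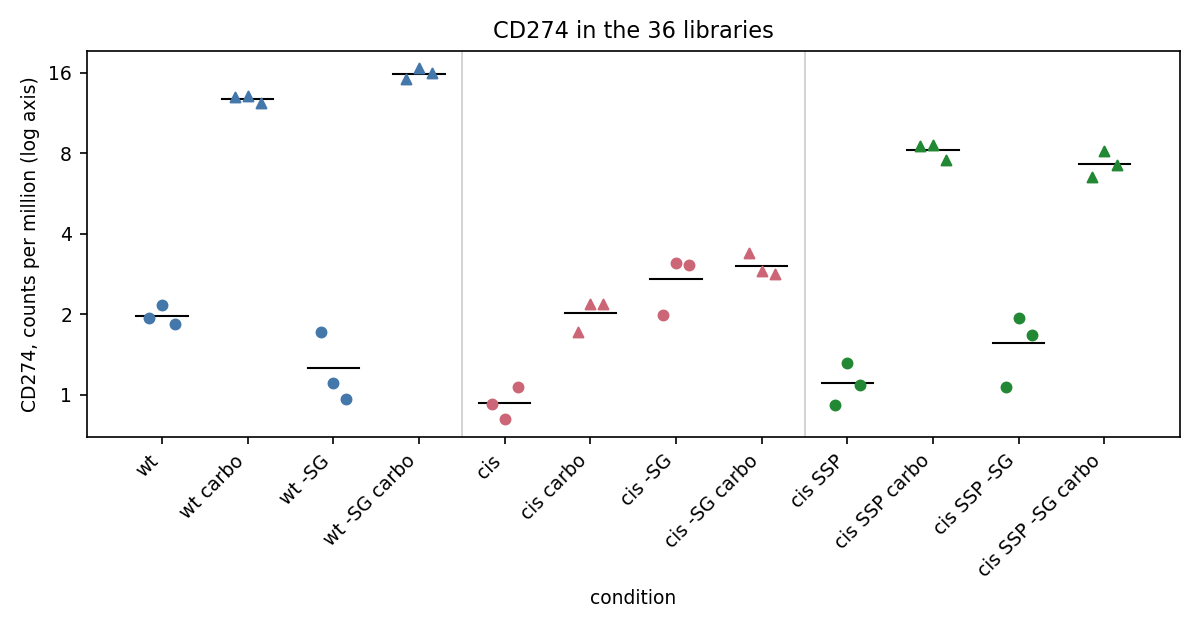
CD274 in CPM (log axis) in each of the 36 libraries, by condition; blue is wt, red is cis, green is cis SSP, circles are untreated, triangles are carboplatin and black lines are means of 3 libraries. The wt and cis SSP triangles lie at 6.54 CPM or above, and the cis triangles at 3.39 CPM or below.

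Ordered by mean, CD274 was highest in wt -SG carbo at 15.9 ± 0.761 CPM (SD, n = 3), then in wt carbo at 12.8 ± 0.398, and the libraries of these conditions did not overlap. The cis SSP carbo mean was 8.22 ± 0.586 CPM and the cis SSP -SG carbo mean 7.29 ± 0.801, with overlapping libraries. A gap followed to cis -SG carbo at 3.04 ± 0.305 CPM. From there down each condition overlapped the next: cis -SG at 2.72 ± 0.629, cis carbo at 2.03 ± 0.266, wt at 1.98 ± 0.168, cis SSP -SG at 1.56 ± 0.442, wt -SG at 1.26 ± 0.401, cis SSP at 1.11 ± 0.199 and cis at 0.936 ± 0.130 CPM. The 4 highest conditions were the carboplatin conditions of the wt and cis SSP lines.

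Carboplatin raised CD274 6.53-fold in wt cells (log2 fold change 2.71 ± 0.13, SE; adjusted p = 1.44e-78, edgeR's quasi-likelihood test over 14639 genes). In wt cells without serine and glycine the rise was 12.5-fold (3.64 ± 0.16, adjusted p = 6.39e-08), larger than in complete medium by 0.93 ± 0.22 on the log2 scale (interaction, adjusted p = 0.00460). The cis cells answered with a 2.19-fold rise (1.13 ± 0.25, adjusted p = 0.00125), smaller than in wt cells by 1.57 on the log2 scale (-1.57 ± 0.30, adjusted p = 7.95e-06). Under -SG, the fold in cis cells was 1.19 and did not pass the test (0.25 ± 0.19, adjusted p = 0.380), and the difference from wt cells was -3.42 ± 0.26 (adjusted p = 4.64e-09). Within cis cells, the response under -SG minus that in complete medium was -0.88 ± 0.31 (adjusted p = 0.0689), and it passed the test without cis -SG replicate 1 (-1.10, adjusted p = 0.0170) or cis -SG carbo replicate 1 (-0.98, adjusted p = 0.0240). DESeq2 gave no adjusted p for CD274 in cis carbo against cis.

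In cis SSP cells, on which CD274 was chosen, the fitted fold of carboplatin over untreated libraries was 7.32 in complete medium, and 6.84 without library 25. Under -SG it was 4.72 (2.24 ± 0.24 on the log2 scale), at 2.44 without library 32 and at 2.01 to 2.31 without any other library of these conditions. The fitted response under -SG was above that of cis cells by 2.04 ± 0.31 on the log2 scale, and by 1.92 without libraries 23 and 24.

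In the untreated lines, withdrawal of serine and glycine raised CD274 2.95-fold in cis cells (1.56 ± 0.24, adjusted p = 9.50e-08). In wt cells the log2 fold change was -0.60 ± 0.23 (adjusted p = 0.0374), a call that was lost with DESeq2 (adjusted p = 0.160) and without any of wt replicates 1, 2 and 3 or wt -SG replicates 2 and 3, at values between -0.46 and -0.65. Between the untreated lines, CD274 was 2.16-fold lower in cis than in wt cells (-1.11 ± 0.24, adjusted p = 5.77e-05). Under -SG, the fitted CD274 level of cis SSP cells was 1.78-fold below that of cis cells (-0.83 ± 0.29, and -1.001 without library 32), given as a description.

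In untreated cells, the members were lower in the cis than in the wt line. Of the 8 members with counts, 6 also passed the filter on low counts within the cis line. All 6 were called lower in cis cells, where 78.5% of the 14431 genes tested were called in either direction. Each of the 6 was at least 2-fold lower, against 14.9% of all genes, with a median log2 fold change of -2.85 for these members and 0.00 for all genes. The other two, PSMB8 and PSMB9, passed the filter only through the wt libraries, so their place among the tested genes already required a difference, and their values are a description. The summed level of the ovarian and epithelial markers differed between the lines as well, at 166 to 169 CPM in wt, 16.6 to 19.9 in cis and 9.57 to 15.9 in cis SSP libraries; its part in the result was not tested. In bulk RNA, fewer expressing cells and less transcript per cell cannot be told apart.

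The heavy chain gene HLA-B (ENSG00000234745, chromosome 6, 31321649 to 31334844) was read at 42.3, 45.7 and 44.01 CPM in wt cells and at 2.64, 3.95 and 4.29 CPM in cis cells. HLA-C (ENSG00000204525, chromosome 6, 31236526 to 31239907) was read at 99.9, 102 and 103 CPM in wt and at 38.6, 35.2 and 36.7 CPM in cis cells. B2M (ENSG00000166710, chromosome 15, 45003556 to 45011049), the shared light chain, was read at 912, 903 and 872 CPM in wt and at 189, 186 and 192 CPM in cis cells. No cis library reached a wt library for any of these chains. HLA-B was 12.2-fold lower in cis cells (-3.61 ± 0.09, adjusted p = 9.87e-34), B2M 4.85-fold lower (-2.28 ± 0.03, adjusted p = 1.53e-48) and HLA-C 2.83-fold lower (-1.50 ± 0.04, adjusted p = 2.14e-32). Per kilobase of exon, B2M was the most abundant member in wt cells at 287 CPM per kilobase, followed by HLA-C at 40.6, TAP1 at 12.7, HLA-B at 9.51, NLRC5 at 8.17, PSMB9 at 5.82, CD274 at 0.482 and PSMB8 at 0.269. HLA-B and HLA-C are near-identical to other class I genes and differ between people, so reads could be split among them. HLA-B also shared 30.7% of its exon bases with the pseudogene DHFRP2, which had 1 count in all. Exon lengths were those of GENCODE release 44, at 4623 bases for HLA-B and 2507 for HLA-C, whereas the counts used release 19. The order per kilobase therefore depends on the annotation.

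The peptide transporter gene TAP1 (ENSG00000168394, chromosome 6, 32812986 to 32821593) was read at 59.2, 61.1 and 60.5 CPM in wt and at 5.15, 6.22 and 5.86 CPM in cis cells, 10.7-fold lower (-3.41 ± 0.07, adjusted p = 5.95e-38). The transactivator NLRC5 (ENSG00000140853, chromosome 16, 57023397 to 57117443) was read at 102, 97.9 and 103 CPM in wt and at 6.73, 7.90 and 6.598 CPM in cis cells, 14.6-fold lower (-3.86 ± 0.06, adjusted p = 1.61e-42). For both genes the wt and cis libraries were far apart. The immunoproteasome subunit PSMB9 (ENSG00000240065, chromosome 6, 32811913 to 32827628) had 353, 349 and 370 counts in the wt libraries and 3, 8 and 1 counts in the cis libraries. Over the summed counts this was an 83.2-fold ratio of wt to cis with an exact 95% counting interval of 47.4 to 162. Its partner PSMB8 (ENSG00000204264, chromosome 6, 32808494 to 32812456) had 11, 16 and 25 counts in wt and 4, 2 and 3 in cis cells, a ratio of 5.38 with an interval of 2.63 to 12.4, and 0 counts in all 12 libraries of the cis SSP line. These intervals cover counting error only.

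The count of 0 for TAP2 (ENSG00000204267, chromosome 6, 32789610 to 32806516) cannot be read as a silent gene. CSNK2B and DDX39B, genes of the same region that every cell uses, had 0 and 1 counts over all 36 libraries, and the class I gene HLA-F had 0. TAP2 shared 19.5% of its exon bases with another annotated gene that was also at 0, and PSMB8 shared 17.3% with the antisense gene PSMB8-AS1, also at 0. The strand setting of the counting is not given in the sources used here, and the counts of TAP2 and PSMB8 are best taken as uncertain.

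**Figure D2:**
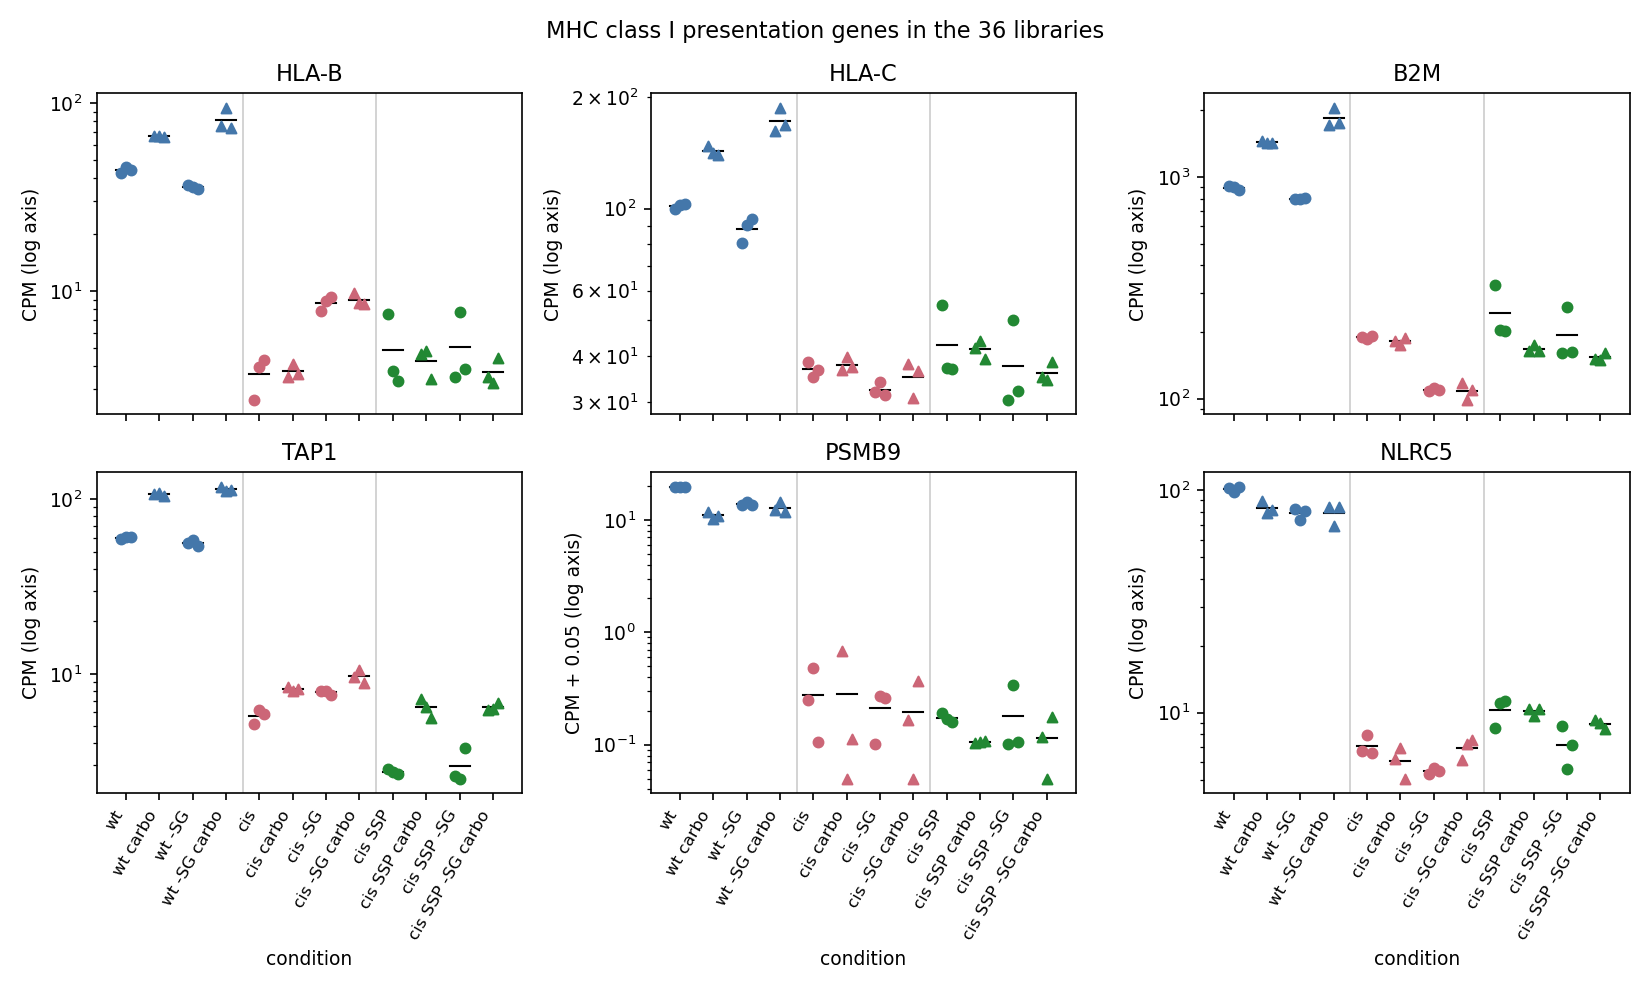
HLA-B, HLA-C, B2M, TAP1, PSMB9 and NLRC5 in CPM (log axes, each panel with its own range; PSMB9 with 0.05 added because 3 of its libraries are at 0) in the 36 libraries, with colours and symbols as for CD274 and black lines at the means of 3 libraries. In all 6 panels the 12 blue wt libraries lie above the 24 libraries of the resistant lines.

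With carboplatin in complete medium, all 8 tested members were called in wt cells, 5 higher and 3 lower, where 77.8% of the 14639 genes tested were called. Only CD274 was at least 2-fold higher, which 10.6% of all genes were. The chains rose: HLA-B to 66.4, 66.7 and 66.1 CPM (1.53-fold, 0.61 ± 0.04, adjusted p = 2.82e-43), HLA-C to 148, 141 and 139.6 CPM (1.42-fold, 0.51 ± 0.03, adjusted p = 1.44e-59), and B2M to 1454, 1426 and 1422 CPM (1.62-fold, 0.70 ± 0.02, adjusted p = 8.21e-186). TAP1 rose to 108, 109 and 105 CPM (1.80-fold, 0.85 ± 0.03, adjusted p = 2.87e-99). The treated libraries of each of these genes lay above all untreated wt libraries. PSMB9 went the other way, to 11.6, 10.2 and 10.8 CPM from 19.5, 19.4 and 19.4 (-0.82 ± 0.08, adjusted p = 2.70e-24), although it lies next to TAP1. NLRC5 fell to 89.5, 79.0 and 81.5 CPM (-0.26 ± 0.03, adjusted p = 2.21e-14). PSMB8 fell from at most 25 counts per library (-0.84 ± 0.34, adjusted p = 0.0199), with overlapping libraries, and lost the call without wt replicate 3 (-0.51, adjusted p = 0.261) or wt carbo replicate 2 (-0.47, adjusted p = 0.244).

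The rise was steeper when wt cells lacked serine and glycine. Of 8 tested members, 5 were called, all higher and all at least 2-fold, where 68.9% of the 14467 genes were called and 11.9% were at least 2-fold higher. HLA-B went from 36.4, 35.6 and 34.96 CPM to 75.6, 94.0 and 74.0 CPM (2.33-fold, 1.22 ± 0.09, adjusted p = 2.32e-06). B2M went from 794, 799 and 803 CPM to 1727, 2051 and 1761 CPM (2.36-fold, 1.24 ± 0.07, adjusted p = 2.99e-07). HLA-C rose 2.00-fold (1.002 ± 0.08, adjusted p = 2.16e-06) and TAP1 rose 2.07-fold (1.05 ± 0.06, adjusted p = 2.54e-07). Replicate 2 of wt -SG carbo was the highest for all 3 chains, and its log2 levels fell with exon length by 0.51 per 10-fold relative to the other libraries of the condition. PSMB9 (-0.08 ± 0.10, adjusted p = 0.475) and NLRC5 (0.03 ± 0.09, adjusted p = 0.779) did not pass the test. Without replicate 2, NLRC5 was called at 0.12 (adjusted p = 0.0440), the only member whose call that library decided in this comparison. The interaction of medium and carboplatin in wt cells called 7 of 8 members, each with a more positive response under -SG, where 27.7% of all genes were called. In 1 fit over the 36 libraries, where the lines share an estimate of the spread, only CD274 kept this call: the differences of the other 6 were nearly the same size, from 0.21 for TAP1 to 0.74 for PSMB9, with adjusted p from 0.0967 to 0.277. In the fit on the wt libraries, the differences besides CD274 were 0.54 ± 0.07 for B2M (adjusted p = 3.28e-05), 0.60 ± 0.10 for HLA-B (adjusted p = 0.000399) and 0.73 ± 0.12 for PSMB9 (adjusted p = 0.000242). The smaller differences for TAP1 (0.20 ± 0.06, adjusted p = 0.0240) and NLRC5 (0.28 ± 0.10, adjusted p = 0.0447) depended on single libraries. TAP1 lost the call without wt replicate 2 or 3, wt carbo replicate 3 or wt -SG replicate 3 (0.17 to 0.20, adjusted p from 0.0530 to 0.0670), and NLRC5 lost it without any of wt replicates 1 to 3, wt carbo replicates 2 and 3, wt -SG replicates 2 and 3 or wt -SG carbo replicates 1 and 3 (0.23 to 0.31, adjusted p from 0.0540 to 0.112). PSMB8 was called only without wt -SG carbo replicate 2 (1.45, adjusted p = 0.0451).

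The response of the chains was smaller in cis cells. With carboplatin in complete medium, 2 of 6 tested members were called in cis cells, CD274 and TAP1, where 20.1% of the 13458 genes were called. TAP1 went from 5.15, 6.22 and 5.86 CPM to 8.45, 7.91 and 8.17 CPM (1.45-fold, 0.53 ± 0.11, adjusted p = 0.000971), without overlap. B2M lay at 182, 175 and 188 CPM with drug and overlapped the untreated libraries (-0.03 ± 0.03, adjusted p = 0.596), and so did HLA-B (0.04 ± 0.17, adjusted p = 0.900) and HLA-C (0.07 ± 0.06, adjusted p = 0.434). The interaction of line and carboplatin called 5 of 8 members, all with a smaller response in cis cells, where 57.6% of genes were called. It was -0.72 ± 0.03 for B2M (adjusted p = 5.36e-27), -0.57 ± 0.16 for HLA-B (adjusted p = 0.00164), -0.43 ± 0.06 for HLA-C (adjusted p = 5.04e-09) and -0.31 ± 0.11 for TAP1 (adjusted p = 0.0153), the last of which missed the threshold without cis replicate 2 (-0.26, adjusted p = 0.0887). The fit over 36 libraries took the calls of HLA-B (-0.57, adjusted p = 0.208), HLA-C (-0.44, adjusted p = 0.0838) and TAP1 (-0.32, adjusted p = 0.0561).

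Under -SG, carboplatin called 3 of 6 tested members in cis cells, where 22.5% of the 14476 genes were called: HLA-C (0.21 ± 0.06, adjusted p = 0.0276), NLRC5 (0.44 ± 0.13, adjusted p = 0.0231) and TAP1 (0.39 ± 0.11, adjusted p = 0.0171). These were small differences that no test with DESeq2 called, at adjusted p from 0.128 to 0.181. Without libraries 23 and 24, only HLA-C remained called, TAP1 was at 0.31 (adjusted p = 0.153) and NLRC5 at 0.19 (adjusted p = 0.548). Leaving out any of cis -SG replicates 1, 2 and 3 removed all 3 calls, at values of 0.18 to 0.23 for HLA-C, 0.42 to 0.45 for NLRC5 and 0.36 to 0.40 for TAP1. Leaving out cis -SG carbo replicate 2 left only HLA-C called, and leaving out replicate 3 left only TAP1. The interaction with line under -SG called 6 of 8 members, where 55.4% of genes were called. The response was smaller in cis cells by 1.19 ± 0.09 for B2M, with adjusted p = 1.71e-09 and the difference cis minus wt at -1.19, and the same difference was -1.10 ± 0.14 for HLA-B, -0.82 ± 0.10 for HLA-C and -0.69 ± 0.11 for TAP1. For NLRC5 it was positive at 0.39 ± 0.15 (adjusted p = 0.0365), 0.18 (adjusted p = 0.492) without libraries 23 and 24, and 0.35 to 0.42 (adjusted p from 0.05004 to 0.0840) without wt -SG replicate 1, any cis -SG replicate, or cis -SG carbo replicate 2 or 3. The interaction of medium and carboplatin in cis cells called 1 of 6 members, NLRC5 at 0.66 ± 0.19 (adjusted p = 0.0191), where 12.1% of genes were called, and it was 0.39 (adjusted p = 0.305) without those libraries. Leaving out cis replicate 2, cis carbo replicate 3, cis -SG replicate 1 or 3, or cis -SG carbo replicate 3 also took the call away (0.49 to 0.61, adjusted p from 0.0520 to 0.100).

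With serine and glycine withdrawn alone, the members were slightly lower in wt cells. There 6 of 8 tested members were called, all lower, where 49.2% of the 14284 genes were called. In the fit over 36 libraries only CD274 and NLRC5 kept the call, and HLA-B (-0.29, adjusted p = 0.326), HLA-C (-0.20, adjusted p = 0.362), B2M (-0.15, adjusted p = 0.533) and PSMB9 (-0.48, adjusted p = 0.0906) lost it. NLRC5 went from 102, 97.9 and 103 CPM to 82.6, 73.7 and 80.8 CPM (-0.34 ± 0.04, adjusted p = 1.50e-06), PSMB9 to 13.5, 14.4 and 13.4 CPM (-0.48 ± 0.07, adjusted p = 6.98e-06), and HLA-B fell by 0.29 on the log2 scale (adjusted p = 3.58e-05). None of the 6 reached 2-fold, and TAP1 was called only without wt -SG replicate 2 (-0.11, adjusted p = 0.0396). In cis cells all 6 tested members were called, 3 higher and 3 lower, where 75.0% of the 14122 genes were called. HLA-B rose to 7.82, 8.87 and 9.24 CPM, 2.39-fold (1.26 ± 0.13, adjusted p = 1.38e-11), and TAP1 to 7.98, 7.99 and 7.56 CPM (0.47 ± 0.11, adjusted p = 0.000246). B2M fell to 108, 112 and 109 CPM (-0.76 ± 0.03, adjusted p = 1.82e-25), while HLA-C (-0.16 ± 0.05, adjusted p = 0.00921) and NLRC5 (-0.35 ± 0.12, adjusted p = 0.00669) moved little. Heavy chain HLA-B and light chain B2M thus went in opposite directions in the same libraries. The NLRC5 call was lost without cis replicate 2 (-0.27, adjusted p = 0.0681) and with DESeq2 (-0.37, adjusted p = 0.0675), and the HLA-C call in the fit over 36 libraries (-0.22, adjusted p = 0.198).

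In cis SSP cells under -SG with carboplatin, 1 of the 5 tested members other than CD274 was called, TAP1, where 1.47% of the 13541 genes were called. TAP1 went from 2.60, 2.51 and 3.73 CPM to 6.20, 6.31 and 6.76 CPM, 2.17-fold (1.12 ± 0.18, adjusted p = 0.0496). It is the only member besides CD274 whose libraries did not overlap here, but its adjusted p rose to between 0.0856 and 0.264 without any library other than 32, and was 3.89e-05 without library 32 (1.05). HLA-C was at -0.06 ± 0.22 (adjusted p = 0.915), and at 0.23 (adjusted p = 0.00643) without library 32. The number of genes called followed that library too, from 199 to 5679 without it. The interaction with cis cells under -SG called 0 of these 5 members, where 2.64% of genes were called. TAP1 was at 0.77 ± 0.20 (adjusted p = 0.0726), called without library 32 (0.64, adjusted p = 0.0168) or cis SSP -SG replicate 3 (0.995, adjusted p = 0.0194).

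Compared with cis cells under -SG, cis SSP cells had 2 of these 5 members called, where 44.8% of the 14342 genes were called. TAP1 was 2.66-fold lower (-1.41 ± 0.18, adjusted p = 0.00161). B2M was 1.75-fold higher (0.81 ± 0.20, adjusted p = 0.0201), with library 32 at 259 CPM against 160.1 and 161 in the other cis SSP -SG libraries, and 0.55 on the log2 scale without library 32. The B2M call was lost without any of cis -SG replicates 1, 2 and 3 (0.81 to 0.83, adjusted p from 0.0717 to 0.0810), and without library 32 HLA-B (-1.25, adjusted p = 3.29e-11) and NLRC5 (0.53, adjusted p = 0.000192) were called as well. In complete medium, where no test is given, TAP1 lay at 2.83, 2.75 and 2.66 CPM in cis SSP cells and at 7.21, 6.43 and 5.59 CPM with carboplatin, a fitted 2.33-fold rise. HLA-B, HLA-C and NLRC5 overlapped between these conditions, and B2M fell from 327, 203 and 201 CPM to 164, 174 and 165 CPM. The 327 CPM came from library 25, and the fitted log2 change in B2M was -0.55 with it and -0.27 without it.

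**Figure D3:**
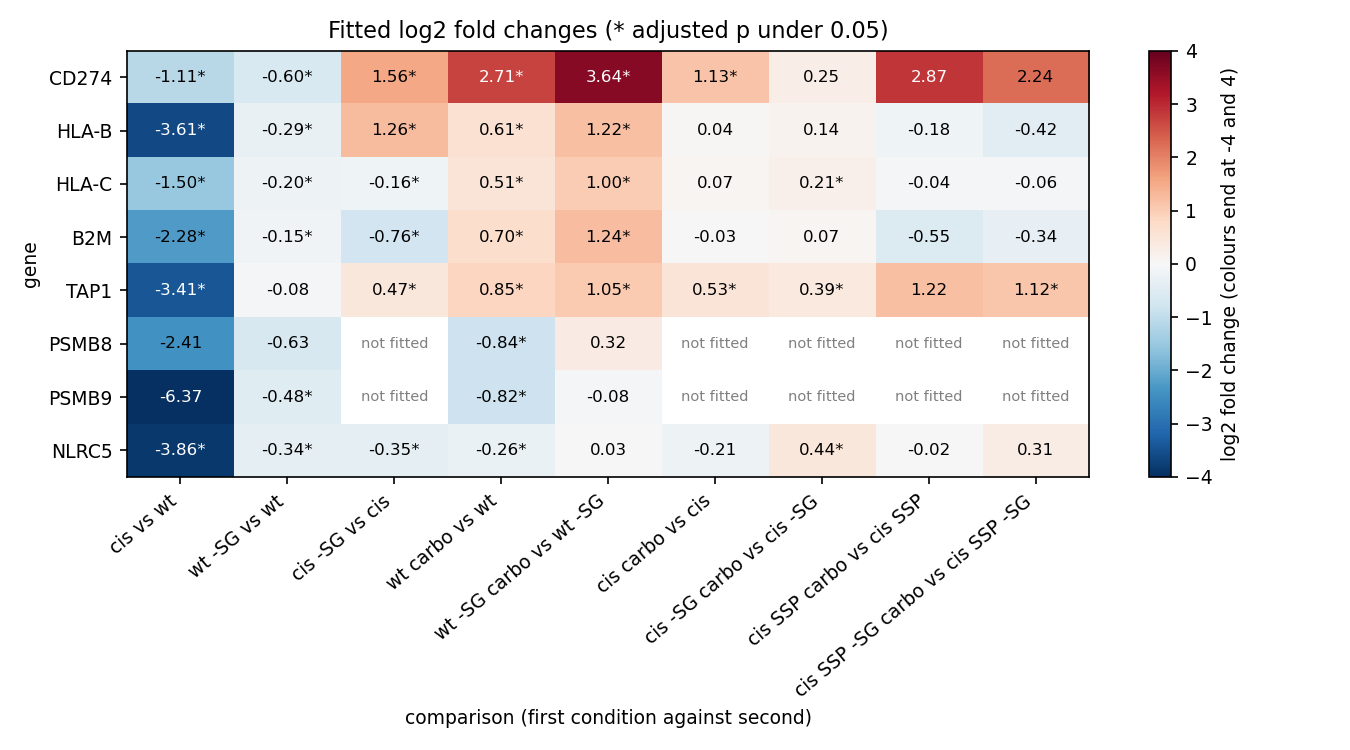
Fitted log2 fold changes of the 8 members with counts (rows) in 9 comparisons (columns); red is higher in the first-named condition, blue lower, an asterisk marks an adjusted p under 0.05, and neither the column cis SSP carbo vs cis SSP nor CD274 in the other cis SSP column, nor PSMB8 and PSMB9 in cis vs wt, carries a test. CD274 and TAP1 are above 0 in all 6 carboplatin columns, while HLA-B, HLA-C and B2M reach 0.5 with carboplatin in the 2 wt columns.

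The other genes of the pathway were read from lists, and the counts below leave out the members. In cis against wt cells, 39.4% of all genes tested were higher and 39.1% lower. The MHC class I chain list had 1 tested nonmember, which was lower. This was HLA-E, a class I gene read by natural killer cells, which averaged 26.6 CPM in the wt and 9.01 CPM in the cis libraries (-1.60, adjusted p = 2.87e-23). Peptide transport and loading had 5 lower and 1 higher of 7 nonmembers, with a median of -0.94. ERAP2 (-2.48) and ERAP1 (-1.81), which trim peptides, were among the lower genes, and the tapasin relative TAPBPL was at -1.13. The immunoproteasome list had 4 lower and 1 higher of 5 nonmembers. The catalytic subunit PSMB10 (-1.48) and the assembly factor POMP (-1.06) were among the lower genes, whereas the constitutive catalytic subunits PSMB6 (0.34) and PSMB7 (0.30) were higher and PSMB5 did not pass the test. In the class I transcription list 7 of 9 nonmembers were lower and 2 higher, with a median of -0.29. IRF1, a transcription factor of the interferon response, averaged 81.2 CPM in the wt and 15.95 CPM in the cis libraries (-2.37), and RFXAP, a subunit of the RFX complex, was at -1.03.

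Of 18 tested interferon-stimulated genes, 15 were lower and 1 higher in cis cells, against 39.1% and 39.4% of all genes, with a median of -1.17: GBP1, a guanylate-binding protein, averaged 60.1 CPM in the wt libraries and 1.03 CPM in the cis libraries (-5.89), and OAS2, an antiviral enzyme, at 19.5 and 0.720 CPM (-4.78). HERC5 went the other way (2.79). Only 14 interferon-stimulated genes passed the filter on low counts within the cis line, with or without carboplatin. Those that passed only through the wt libraries had to be lower in cis cells to be tested, so the list's count is a description. In the list of interferon receptors and signalling, 7 of 12 were lower and 4 higher, with a median of -0.22. The transcription factor IRF9 (-2.15) and the feedback inhibitor SOCS3 (-6.35) were lower, and the kinase JAK1 was higher, with means of 24.7 CPM in the wt and 1102 CPM in the cis libraries (5.45). Of 9 NF-kB genes 4 were higher and 1 lower, with BIRC3 at 0.82 and RELA at 0.63, and 2 of 8 p53 targets were higher and 4 lower. None of 4 DNA sensing genes was called.

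With carboplatin in wt cells, all 11 tested NF-kB genes rose, where 38.9% of all genes tested were higher and 39.0% lower, with a median of 1.74. Only 9 NF-kB genes could be tested in wt -SG against wt. TRAF1 and CX3CL1 passed the filter on low counts only through the carboplatin libraries, so their rise was required and is a description. TRAF1, a signalling adaptor, went from 0.163 to 21.1 CPM (6.97), the chemokine CX3CL1 from 0.111 to 18.8 CPM (7.36), BIRC3 from 9.02 to 202 CPM (4.50) and TNFAIP3 rose by 3.30. All 8 p53 targets rose, including CDKN1A (3.67) and GDF15 (4.28), with a median of 2.14. Interferon signalling had 12 of 13 genes higher and 1 lower with a median of 0.70, among them STAT3 (1.30), JAK1 (1.35) and IFNGR1 (0.98), and 13 of 18 interferon-stimulated genes rose and 2 fell, with a median of 1.02. Only 12 interferon signalling genes could be tested in wt -SG against wt, so not all passed the filter without the carboplatin libraries. CXCL10 (2.99), IFIT3 (2.08) and OAS2 (1.48) were among those that rose, and IRF1 rose from 81.2 to 250 CPM (1.64). Of 5 nonmembers of the immunoproteasome list 4 rose and 1 fell, and PSMB10 rose (1.12) while the member PSMB9 fell. In class I transcription 6 of 9 nonmembers rose and 2 fell, with RFXAP at -1.19 beside the member NLRC5. Peptide transport and loading had 3 of 7 nonmembers higher and 3 lower, with TAPBPL (0.73) and TAPBP (0.56) rising and PDIA3 falling (-0.20). In cis cells, where 9.27% of all genes tested were higher with carboplatin and 10.8% lower, all 8 p53 targets rose too, with a median of 0.68, but only 3 of 9 NF-kB genes and 3 of 14 interferon-stimulated genes did, with medians of 0.09 and -0.06. BIRC3 was at 0.38 there.

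**Figure D4:**
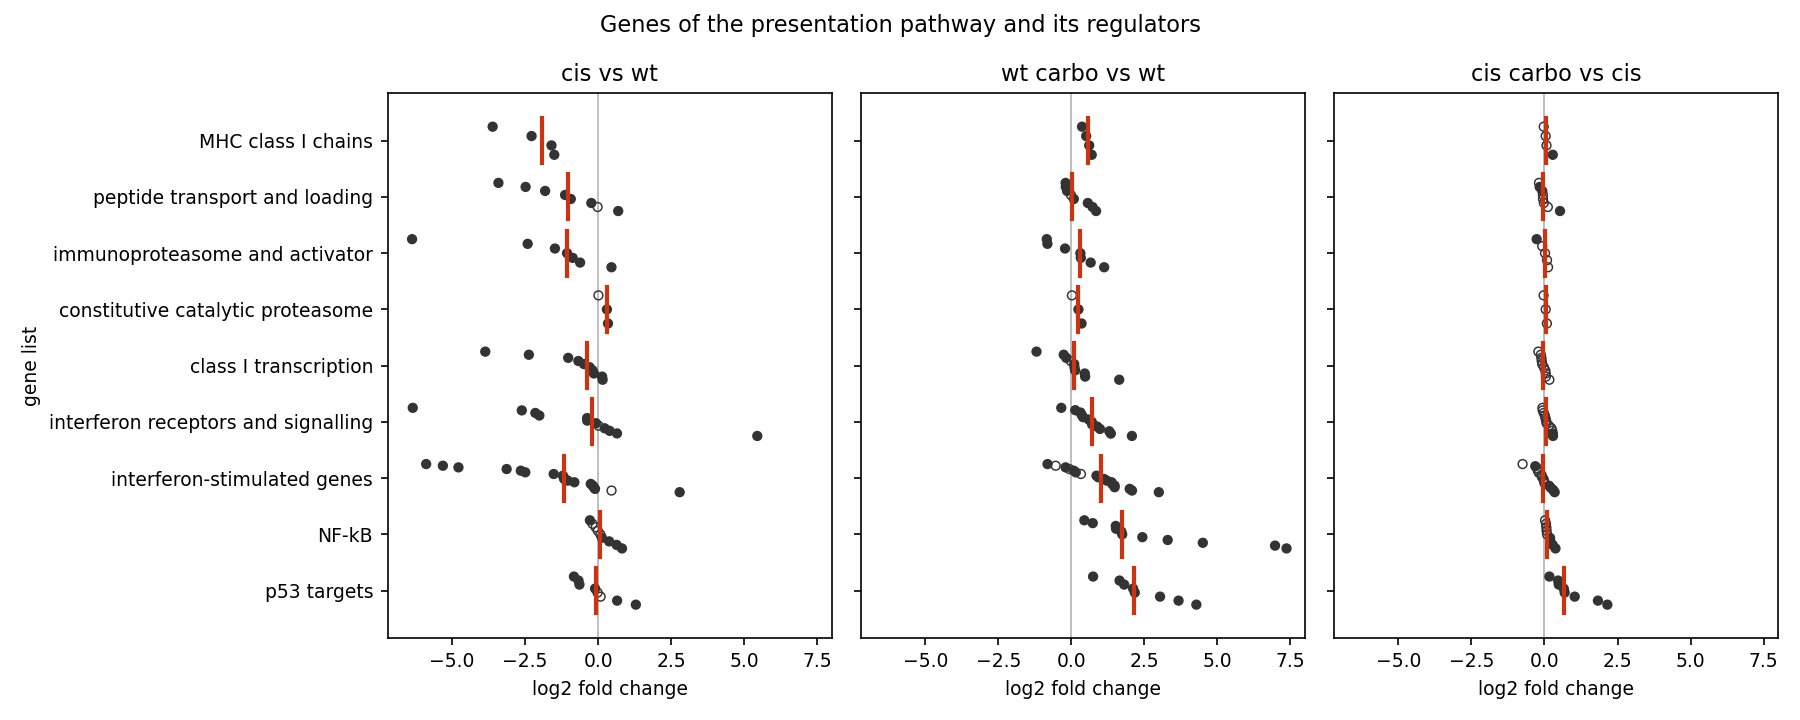
Log2 fold changes of the tested genes of 9 lists (rows of points) in cis vs wt, wt carbo vs wt and cis carbo vs cis; filled points are called at an adjusted p under 0.05, open points are not, and the red bar is the list's median. The lists drawn here include the members. Genes that passed the filter on low counts only through the condition where they are higher are a description. The NF-kB and p53 lists lie to the right of 0 in wt carbo vs wt, with medians of 1.74 and 2.14, and most interferon-stimulated genes lie to the left of 0 in cis vs wt, with a median of -1.17.

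Over the means of the 12 conditions, the genes whose log2 level followed CD274 most closely among 11918 protein-coding genes were KCNN4 (Pearson r = 0.975), DNAI3 (0.968), CDIP1 (0.963), KDM3A (0.960) and F2RL1 (0.957). KCNN4, a calcium-activated potassium channel, was at 1.93 CPM in wt, 28.2 in wt carbo, 1.35 in cis, 2.66 in cis carbo, 2.38 in cis SSP and 11.3 in cis SSP carbo. The presentation members resembled CD274 less, with r from 0.268 for PSMB9 to 0.49998 for HLA-C, and r = 0.385 for their joint profile. CP (r = 0.998), ATP6V0D2 (0.997) and CLDN17 (0.997) were among the genes closest to that joint profile, and they were high in the wt conditions and low in the others. These 12 points share lines and libraries, and the coefficients describe them only.

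For the genes within 1 Mb of a member, differences between cis and wt cells were centred near 0 in most places. The 27 tested neighbours of TAP1 and PSMB9 had a median log2 fold change of -0.10, the 34 of HLA-B 0.11, the 17 of B2M -0.05 and the 22 of NLRC5 0.16. The 12 around CD274 had a median of -0.61, with 8 lower and 3 higher, between -1.62 for PLGRKT and 7.03 for SLC1A1. Called lower and higher were 13 and 5 around TAP1, 11 and 14 around HLA-B, 8 and 6 around B2M, and 3 and 13 around NLRC5. Of all genes tested, 39.1% were lower and 39.4% higher. The neighbours counted averaged 50 counts or more. The neighbourhood was chosen after the members' values were known.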

How the data were processed

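Total RNA-seq was performed on 36 libraries of A2780 cells, 3 for each of 12 conditions, taken from the sample labels. The deposited values are read counts per gene, which the authors made with STAR alignment to GRCh37.p13 (hg19) and HTSeq counting on GENCODE release 19 (the tools and build are those of the submitters' processing notes and the study's methods). 3 rows of counter totals that name no gene were left out of library sizes, and reads in no gene were 4.21% to 17.9% of those on genes or in none. Libraries held 13074937 to 20441582 counts on genes. Every one of the 36 pairs of libraries within a condition differed beyond sampling noise (mean chi-square per gene 1.20 to 123).

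Counts were tested with edgeR 4.0.16 in R 4.3.3 (TMM, filterByExpr, quasi-likelihood F test, limma 3.58.1), with Benjamini-Hochberg adjustment over all genes tested and a threshold of 0.05. Each of 9 comparisons used its own 6 libraries and each of 5 interactions its 12. The other 3 comparisons, which use the cis SSP libraries in complete medium, were fitted without a test, and CD274 was given no test in any comparison with cis SSP cells. The alternatives were DESeq2 1.42.0, other scalings and filters, a fold threshold, 1 fit over 36 libraries and leaving out libraries. Tables and figures were made with Python 3.11.15, pandas 2.3.3, numpy 2.4.6 and matplotlib 3.10.9, and the tests were checked on simulated data.

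The 9 members, the 15 gene lists and the tests were chosen with earlier results of these data known. The text names all members, at most 4 called genes per list and comparison with the largest absolute log2 fold change provided they averaged 50 counts or more, and the 5 genes most like each profile among genes averaging 1 CPM or more. Some genes that this rule selects are not reported here. Exon lengths and coordinates come from GENCODE release 44 on GRCh37, matched by gene identifier, and promoter windows come from RefSeq.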

Additional observations from a re-analysis of the deposited data

Results flagged for a closer look

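Responses to carboplatin that differed between groups by the interaction test were as follows, each as a difference of log2 fold changes. Between cis and wt cells in complete medium (cis minus wt) it was -1.57 for CD274, -0.57 for HLA-B, -0.43 for HLA-C, -0.72 for B2M and -0.31 for TAP1. Between the same lines without serine and glycine it was -3.42 for CD274, -1.10 for HLA-B, -0.82 for HLA-C, -1.19 for B2M, -0.69 for TAP1 and 0.39 for NLRC5. Between cis SSP and cis cells under -SG (cis SSP minus cis) it was 2.04 for CD274, which is a description because CD274 was chosen on cis SSP cells. Between media (-SG minus complete) in wt cells it was 0.93 for CD274, 0.60 for HLA-B, 0.49 for HLA-C, 0.54 for B2M, 0.20 for TAP1, 0.73 for PSMB9 and 0.28 for NLRC5, and in cis cells 0.66 for NLRC5. Single outlying libraries were looked for by leaving each out, since the gap measure used for outliers is defined for groups of at least 4.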

How the results depend on the processing

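Of the members' log2 fold changes under the alternatives, 1294 kept their direction and side of the threshold, 94 lost a call, 17 gained one and 1 turned: HLA-C in cis SSP -SG carbo vs cis SSP -SG, -0.06 with all libraries, 0.23 without library 32, and -0.20 to 0.23 over all single libraries left out. These totals include CD274 in comparisons with cis SSP cells, on which it was chosen, and its part there is a description. The counts of members with a 2-fold threshold and with DESeq2 leave out the comparisons with cis SSP cells. These are given gene by gene without CD274. Where counts of members in these comparisons are printed further on, they include CD274 and are a description, not results about the members. With a 2-fold threshold, the members called were 1 in wt carbo vs wt, 1 in cis carbo vs cis, 0 in wt -SG vs wt, 2 in cis -SG vs cis, 0 in cis -SG carbo vs cis -SG, and 1, 3, 0 and 0 in the interactions of line in complete medium, line under -SG, medium in wt and medium in cis. Shares of all genes at that threshold in either direction are not reported here, so these counts are not results about the members in particular. DESeq2 called 0 in cis -SG carbo vs cis -SG, where it called 2146 of 31411 genes fitted. It also called 0 in the interaction of medium in cis, where it called 1335 of 33063. In cis SSP -SG carbo vs cis SSP -SG, TAP1 kept its call in 4 of 12 alternatives and lost it in 8. In cis SSP -SG vs cis -SG, B2M lost its call in 3 of 12 alternatives, HLA-B gained a call in 3 and NLRC5 in 2. In the interaction of cis SSP against cis, TAP1 gained a call in 4 of 19 alternatives. The fit over 36 libraries called 2 in wt -SG vs wt. In the interactions it called 2 in that of line in complete medium, 1 in that of medium in wt and 0 in that of medium in cis. With CD274 included, and as a description, it called 6 in cis SSP -SG vs cis -SG, where it called 9814 of 16677 genes. It likewise called 2 in the interaction of cis SSP against cis, where it called 1361 of 16677 genes. The fits without libraries 23 and 24 left 1 library of cis -SG carbo, and those of the interactions were added after the data were seen. Leaving out 1 library gave 0 to 3 in cis -SG carbo vs cis -SG and 0 to 2 in the interaction of medium in cis. With CD274 included, and as a description, it gave 0 to 3 in cis SSP -SG carbo vs cis SSP -SG. On the same terms it gave 1 to 5 in cis SSP -SG vs cis -SG and 1 to 2 in the interaction of cis SSP against cis.

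Counts over all genes moved too. DESeq2 called 1346 genes in cis carbo vs cis against 2702 with edgeR, 2146 against 3253 in cis -SG carbo vs cis -SG, 576 against 199 in cis SSP -SG carbo vs cis SSP -SG, and 792 against 393 in the interaction of cis SSP against cis. The fit over 36 libraries gave 401, 1141, 2860 and 1361 for these, 2821 against 7021 in wt -SG vs wt, 9814 against 6421 in cis SSP -SG vs cis -SG, and 5240, 1535 and 112 against 8807, 4219 and 1787 in the interactions of line in complete medium, medium in wt and medium in cis. Without library 32 the counts were 5679 in cis SSP -SG carbo vs cis SSP -SG, 11125 in cis SSP -SG vs cis -SG and 4589 in the interaction of cis SSP against cis. Without any other library the first was 0 to 4, and without a cis -SG replicate the second was 4011 to 4146. The interaction of cis SSP against cis fell to as few as 126 without 1 library and to 26 without libraries 23 and 24. Leaving out 1 library gave 1666 to 5224 in cis -SG carbo vs cis -SG, as few as 1755 in cis carbo vs cis (cis carbo replicate 3), and 3594 in the interaction of medium in cis (cis -SG carbo replicate 1). Total counts in place of TMM moved the share of higher calls from 48.4% to 61.1% in cis -SG carbo vs cis -SG, from 80.2% to 63.4% in the interaction of cis SSP against cis and from 48.9% to 62.5% in that of medium in cis, and the median of all genes in the interaction of line under -SG from 0.00 to 0.10. The correlation of KDM3A with CD274 was 0.917 without libraries 23, 24, 25 and 32. No paired analysis was possible because the labels give the libraries no shared replicate numbers. The causes were not tested.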

Other observations

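With carboplatin in wt cells, 38.9% of all genes tested were higher and 39.0% lower, and in cis against wt cells 39.4% and 39.1%, and the lists that follow are to be read beside these shares. Other ligands through which tumour cells address lymphocytes were also measured. CD70, the ligand of CD27 on T cells, averaged 9.79 CPM in wt, 167 CPM in wt carbo (log2 fold change 4.11), 131 CPM in cis (3.71 against wt) and 169 CPM in cis carbo (0.40 against cis). TNFRSF14, the ligand of BTLA, averaged 9.75 CPM in wt and 32.7 CPM in wt carbo (1.76), and 3.94 and 5.67 CPM in cis and cis carbo (0.56). Of 7 tested checkpoint ligands outside the PD-1 pathway, 5 rose with carboplatin in wt cells and none fell, CD276 (0.74) and PVR (0.67) among them, and in cis against wt cells 5 were lower and 2 higher, with NECTIN2 at -1.24 and CD47 at -0.94. Only 6 of the listed ligands passed the filter on low counts within the cis line. A gene that passed only through the wt libraries had to be lower in cis cells to be tested. These calls used edgeR's quasi-likelihood test with an adjusted p under 0.05.

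The ligands of the activating natural killer cell receptor NKG2D were read from a list of 8 genes, 3 of which could be tested between the lines. MICA averaged 8.35 CPM in the wt and 14.9 CPM in the cis libraries (0.80), MICB 9.32 and 14.5 CPM (0.60) and ULBP1 3.49 and 9.31 CPM (1.38), so all 3 were higher in cis cells. With carboplatin MICA (1.56) and MICB (0.53) rose in wt cells and ULBP1 fell (-1.17), and in cis cells MICA (0.38) was the only called gene of 4 tested. CMTM6, which stabilises PD-L1 protein, averaged 107 CPM in wt, 132 CPM in wt carbo (0.32) and 126 CPM in cis cells (0.21). CD74, the MHC class II invariant chain, averaged 2.29 CPM in wt, 7.46 CPM in wt carbo (1.72) and 5.48 CPM in cis cells (1.22). Of the 10 class II genes listed 3 could be tested in either comparison. Between cis and wt cells the others, HLA-DRB1 and HLA-DMA (-1.52), were lower, with a list median of -1.52. Only 1 listed class II gene passed the filter on low counts within the cis line. HLA-DRB1 and HLA-DMA passed only through the wt libraries, so their place among the tested genes required a difference and their values are a description. With carboplatin in wt cells HLA-DQB1 (2.62) rose and HLA-DMA fell (-2.10). HLA-DQB1 was not among the genes tested between cis and wt cells, and its rise is a description too. These 3 HLA genes averaged at most 2.13 CPM in wt, wt carbo and cis cells and were named after their values were seen.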
